A study of Homo sapiens with 2 samples.

Results

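The genes that define the epithelial-mesenchymal state of H1299 cells were followed across a PHF12 knockdown. The set held 10 genes, picked by name from 38637 in the deposited table: the cadherins CDH1 and CDH2, vimentin (VIM), fibronectin (FN1), the keratins KRT8 and KRT18, and the transcription factors ZEB1, ZEB2, SNAI2 and TWIST1. H1299 is an established lung carcinoma line (non-small cell, human) grown from a lymph node metastasis. There were 2 poly(A)-selected RNA-seq libraries of this line, 1 per group and both labelled wild type in genotype. The tested library came from cells with PHF12 knockdown, whose title carries the prefix si, and the other from control cells labelled as without treatment, whose title ends in nc. The labels do not say if the control cells were given any oligonucleotide. The knockdown library held 26084594 counts and the control library 24740581 counts.

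In the epithelial-mesenchymal transition (EMT), epithelial cells lose their junctions and gain motility. E-cadherin, encoded by CDH1, holds epithelial cells together, and the keratin 8 and keratin 18 proteins pair to form the simple epithelial type of intermediate filament. Mesenchymal cells carry N-cadherin (CDH2), vimentin filaments and a fibronectin matrix in their place. The ZEB, SNAI and TWIST factors bind E-box DNA and repress epithelial genes, CDH1 among them. The microRNAs of the miR-200 family and the ZEB genes are known to repress each other.

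The miR-200 family is shown first because the 2 ZEB genes are its classical targets. The mature sequences are those of RefSeq (GRCh38.p14), 5′ to 3′, with the seed (bases 2 to 8) in capitals, and they fall into 2 seed groups.
hsa-miR-200b-3p: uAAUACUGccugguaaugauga
hsa-miR-200c-3p: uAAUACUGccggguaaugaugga
hsa-miR-429: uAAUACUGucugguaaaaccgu
hsa-miR-200a-3p: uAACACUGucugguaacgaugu
hsa-miR-141-3p: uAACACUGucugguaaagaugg
The first 3 share the seed AAUACUG, whose complement on a transcript reads CAGTATT, and the last 2 share AACACUG, whose complement reads CAGTGTT. In the annotated 3′ UTR of ZEB1 the 2 words occurred 9 times, 6 as CAGTATT and 3 as CAGTGTT, and in that of ZEB2 also 9 times, 5 and 4. These 3′ UTRs are 2549 and 5370 bases long. Among the 12313 genes whose 3′ UTR could be read, 33.4% held at least 1 of these words, with no allowance for length, and 3 genes held more than ZEB1 or ZEB2. FN1 held 2, SNAI2 1 and KRT8 1, and the other 5 genes of the set held none. The KRT8 3′ UTR read here has 2190 bases, beside a deposited length of 2247 bases for the whole gene. It may therefore not belong to the KRT8 transcript measured here. The words were read on the transcript strand, and a match is a description of letters, not a tested site. Some of these matches, each followed by an A as in the strongest kind of seed match, are printed with the word in capitals.
ZEB1, 3′ UTR base 369: cattgttttatcttatCAGTATTat
ZEB1, 3′ UTR base 1243: gctgatttttacctatCAGTATTat
ZEB1, 3′ UTR base 1533: ttgagatttgatttaaCAGTGTTat
ZEB2, 3′ UTR base 455: tcgcactacaatgcatCAGTATTat
ZEB2, 3′ UTR base 734: aagtgccatccttgtaCAGTGTTaa
On the miRNA side, MIR200CHG, the host transcript of miR-200c and miR-141, had 0 counts in the knockdown library and 0 in the control library. The 5 miRNA loci had 0 counts in both libraries too, although poly(A) libraries do not capture mature miRNAs. A count of 0 allows up to 3 counts per library.

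As a check of the labels, PHF12 had 756 counts in the knockdown library, against 947 in the control library. Its log2 ratio, knockdown over control, was −0.41, with a 95% counting interval of −0.55 to −0.27. The PHF12 transcript thus stood at 0.753 of the control level. Of all genes measured (defined below), 8.90% had a larger absolute log2 ratio, so a difference of this size was not particular to PHF12. With 1 library per group there is no replicate check and no p-value: ratios describe these 2 libraries, and intervals cover counting error only. Ratios of single genes are ratios of scaled counts without a pseudocount. Among markers of other cell types, the leukocyte genes PTPRC and CD3E, the squamous genes KRT5, KRT14 and DSG3 and the fibroblast genes LUM and THY1 had 0 counts in both libraries. Summed levels were 4.09 CPM (counts scaled to library size) in the knockdown library and 3.77 CPM in the control library for 8 fibroblast genes, 0.917 and 0.932 CPM for 5 leukocyte genes, and 5.62 and 6.36 CPM for 4 endothelial genes. The muscle, squamous and neuroendocrine lists summed to 0.459, 0 and 2.64 CPM in the knockdown library and 0.568, 0.041 and 3.08 CPM in the control library. The lung epithelium list of 7 genes, which includes the lineage factor NKX2-1 and surfactant genes, summed to 0.841 CPM in the knockdown library and 1.14 CPM in the control library, and SFTPA1, SFTPC and SCGB1A1 were at 0. NKX2-1 had 5 counts in the knockdown library and 17 in the control library, so markers of differentiated lung epithelium were at or near 0 in these cells.

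Both libraries showed the same mixed pattern: no counts of E-cadherin, very high vimentin, and very high keratin 8 and keratin 18. In the knockdown library KRT8 stood at 0.760 and KRT18 at 0.796 of the control level, TWIST1 at 0.685 and VIM at 0.896, while CDH2 stood at 1.16 times the control level. ZEB1, ZEB2 and FN1 had intervals that included no difference. Of the 10 genes, 8 passed the filter, which asked for 1 CPM or more on average over the 2 libraries, and CDH1 and SNAI2 did not. None of the 8 differed by 1.5-fold or more, a size reached upwards by 1.33% and downwards by 1.41% of the 14559 genes measured. The interval lay above no difference for 1 of the 8 (CDH2), against 20.3% of genes measured. It lay below for 4 of the 8 (VIM, KRT8, KRT18 and TWIST1), against 20.9%. Such intervals narrow with depth, and VIM, KRT8 and KRT18 are among the most abundant genes. Both shares cover genes down to 1 CPM and are not matched for abundance, here and for the lists below. The median log2 ratio over the 8, with 0.5 CPM added to each value, was −0.13, beside −0.01 over all genes measured. An interval of that median from the ordered values ran from −0.53 to 0.21, the full range of the 8, so no shift of the set is shown. In bulk RNA, fewer cells of a type and less RNA per cell cannot be told apart.

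By TPM, a level that accounts for gene length, the order in the knockdown library was VIM, KRT18, KRT8, CDH2, TWIST1, ZEB1, ZEB2, FN1 and SNAI2, with CDH1 last at 0. In the control library it was VIM, KRT18, KRT8, TWIST1, CDH2, ZEB1, FN1, ZEB2 and SNAI2, again with CDH1 at 0. The libraries thus had the same 3 leading genes and differed in the order of CDH2 and TWIST1 and of ZEB2 and FN1. In the knockdown library CDH2 had 1.56 times the TPM of TWIST1 (exact binomial 95% interval 1.37 to 1.77), while TWIST1 and ZEB1 (ratio 1.06, 0.935 to 1.20) and ZEB2 and FN1 (1.02, 0.938 to 1.10) did not differ beyond counting error. In the control library TWIST1 and CDH2 did not (ratio 1.08, 0.964 to 1.22), and FN1 had 1.13 times the TPM of ZEB2 (1.04 to 1.23). Below these, the step to SNAI2 was 11.6-fold (7.64 to 18.6) from FN1 in the knockdown library and 8.82-fold (5.99 to 13.6) from ZEB2 in the control library.

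**Figure D1:**
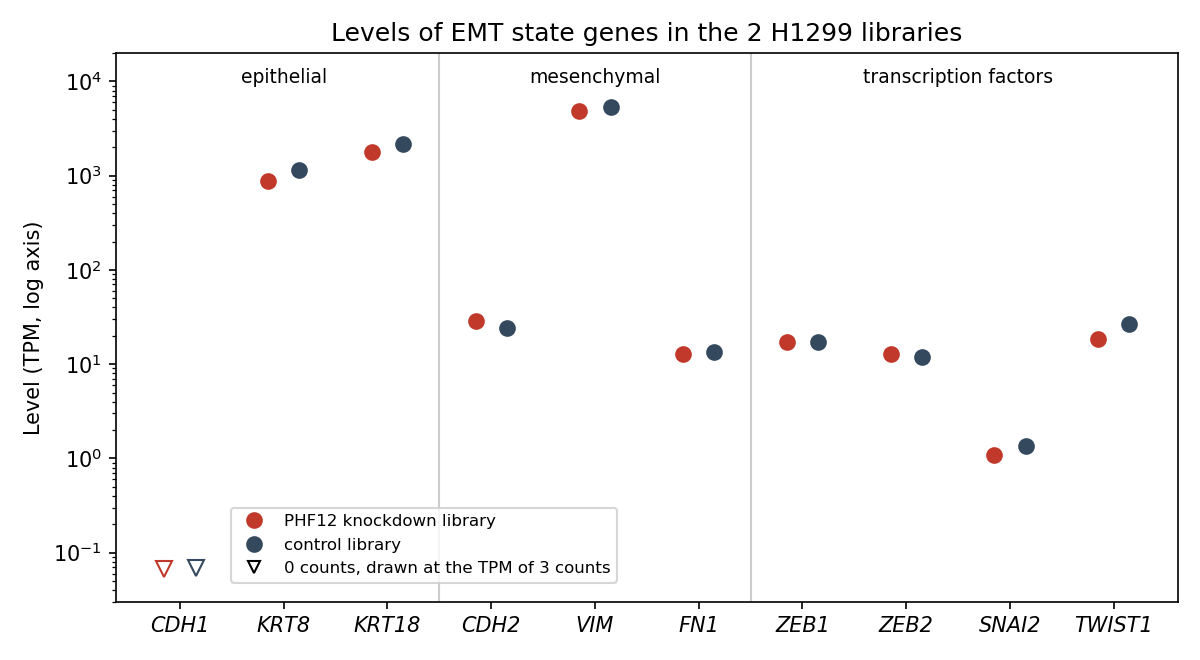
Level of each gene in TPM (transcript abundance per gene length, log axis) in the PHF12 knockdown library (red, left) and the control library (dark, right), 1 point per library; open triangles mark 0 counts, drawn at the TPM of 3 counts. VIM, KRT18 and KRT8 lie between 888 and 5349 TPM and CDH1 is at 0 in both libraries.

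CDH1, on chromosome 16 from 68737292 to 68835537 (hg38), had 0 counts in the knockdown library and 0 in the control library. At these depths the limit of 3 counts is 0.0664 TPM in the knockdown library and 0.0692 TPM in the control library. CDH1 was thus not detectable at this depth in either library, and no difference between them could be measured. CDH2, on chromosome 18 from 27932878 to 28177130, had 1221 counts (28.7 TPM) in the knockdown library and 996 counts (24.4 TPM) in the control library. The log2 ratio of CDH2 was 0.21 (0.09 to 0.33), and 31.6% of genes measured had a larger absolute log2 ratio. Taking 3 counts of CDH1 as the limit, CDH2 was at least 433-fold higher than CDH1 per length in the knockdown library and at least 353-fold higher in the control library.

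CDH2 was nearly alone among the cadherins listed here, which are not the whole family. Of 18 other cadherin genes, 8 had 0 counts in both libraries and 1 passed the filter, CDH24, with 10.2 TPM in the knockdown library and 11.3 TPM in the control library. P-cadherin (CDH3) had 4 counts in the knockdown library and 6 in the control library, and H-cadherin (CDH13) had 10 and 9. The catenins that tie cadherins to actin were abundant. CTNNA1 (alpha-catenin) had 246 TPM in the knockdown library and 243 TPM in the control library, CTNNB1 (beta-catenin) 176 and 168 TPM, and CTNND1 (p120-catenin) 78.6 and 79.5 TPM, with intervals of the log2 ratio that included 0. Of 11 measured catenins and adaptors, 3 had an interval above no difference and 1 below, against 20.3% and 20.9% of all genes measured. CTNNBIP1, an inhibitor of beta-catenin binding to TCF factors, stood at 0.22 (0.14 to 0.30), the catenin-like CTNNAL1 at 0.17 (0.10 to 0.23), and the p120 relative ARVCF at −0.28 (−0.39 to −0.17), all on the log2 ratio scale. Among cadherin-processing enzymes, ADAM10, the protease that sheds N-cadherin and E-cadherin, stood at a log2 ratio of 0.20 (0.13 to 0.28) and ADAM15 at 0.31 (0.19 to 0.44). The most abundant of them, the membrane metalloprotease MMP14, stood at −0.03 (−0.09 to 0.03).

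KRT8, on chromosome 12 from 52897191 to 52949860, had 18484 counts (888 TPM) in the knockdown library and 22927 counts (1147 TPM) in the control library. Its log2 ratio was −0.40 (−0.42 to −0.37). KRT18, the neighbour of KRT8 on chromosome 12 from 52948855 to 52952906, had 24582 counts (1772 TPM) in the knockdown library and 29132 counts (2189 TPM) in the control library. Its log2 ratio was −0.33 (−0.35 to −0.31). Both keratins were thus lower in the knockdown library while they stayed among its most abundant transcripts, at rank 59 for KRT18 and 133 for KRT8 of 19439 protein-coding genes by TPM, against ranks 50 and 102 in the control library. Differences of this size were uncommon among abundant genes: of 233 genes that averaged 500 CPM or more, 6 had a larger absolute log2 ratio than KRT8 and 9 a larger one than KRT18. Over all genes measured those shares were 9.38% and 14.4%, where genes with few counts are included. Reference and long RNAs gave another scale: of 9, 3 had an interval above no difference and 4 below, among them HPRT1 at −0.38 (−0.48 to −0.29), GAPDH at −0.10 (−0.11 to −0.09), and the nuclear RNAs NEAT1 at 0.39 (0.35 to 0.44) and MALAT1 at 0.25 (0.20 to 0.29). What RNA quality contributed to the keratin values was not tested.

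The 2 keratins kept close to the same proportion. The TPM ratio of KRT8 to KRT18 was 0.501 (exact binomial 95% interval 0.491 to 0.511) in the knockdown library and 0.524 (0.515 to 0.533) in the control library. This ratio needs no scaling between libraries, and its log2 change was −0.07 (−0.10 to −0.03, Wald interval from the 4 counts). The 2 gene spans overlap by 1006 bases on opposite strands, and with no stated strand setting, reads from the shared bases cannot be assigned to one gene with certainty. Of the many keratin pseudogenes in the genome 2 are listed in the table, KRT18P55 with 0 counts in both libraries and KRT8P41 with 3 counts in the knockdown library and 0 in the control library; reads shared with unlisted copies remain uncertain.

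Few other keratins were present. Of 13 other type I keratins 8 had 0 counts in both libraries and 3 passed the filter, and of 16 other type II keratins 11 had 0 counts and 2 passed. KRT80 had 2039 counts in the knockdown library and 1904 in the control library, and KRT10 409 and 391 counts, with log2 ratios of 0.01 (−0.08 to 0.11) and −0.02 (−0.22 to 0.18). KRT7, the usual simple-epithelium partner of KRT19, had 56 counts in the knockdown library and 76 in the control library, with a log2 ratio of −0.53 (−1.05 to −0.01). KRT19 had 13 counts in the knockdown library and 5 in the control library and did not pass the filter. Of 13 measured genes of other intermediate filaments and their linkers, 6 had an interval above no difference and 5 below. The shares of all genes measured were 20.3% and 20.9%. Trichoplein (TCHP), a keratin filament binding protein, stood at a log2 ratio of −0.36 (−0.56 to −0.16). Plectin (PLEC), the linker of intermediate filaments to other cell structures, was chosen after its values were seen and stood at −0.33 (−0.35 to −0.30), with 162 TPM in the knockdown library and 200 TPM in the control library. The related linkers MACF1 and DST, also chosen with their values seen, stood at 0.14 (0.11 to 0.17) and 0.06 (0.02 to 0.09). Among other filament genes, LMNA (lamin A/C) was the most abundant, with 736 TPM in the knockdown library and 708 TPM in the control library. Nestin (NES) had 68 counts in the knockdown library and 42 in the control library, a log2 ratio of 0.61 (0.03 to 1.20). GFAP had 79 counts in the knockdown library and 46 in the control library, and its log2 ratio was 0.70 (0.15 to 1.25).

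**Figure D2:**
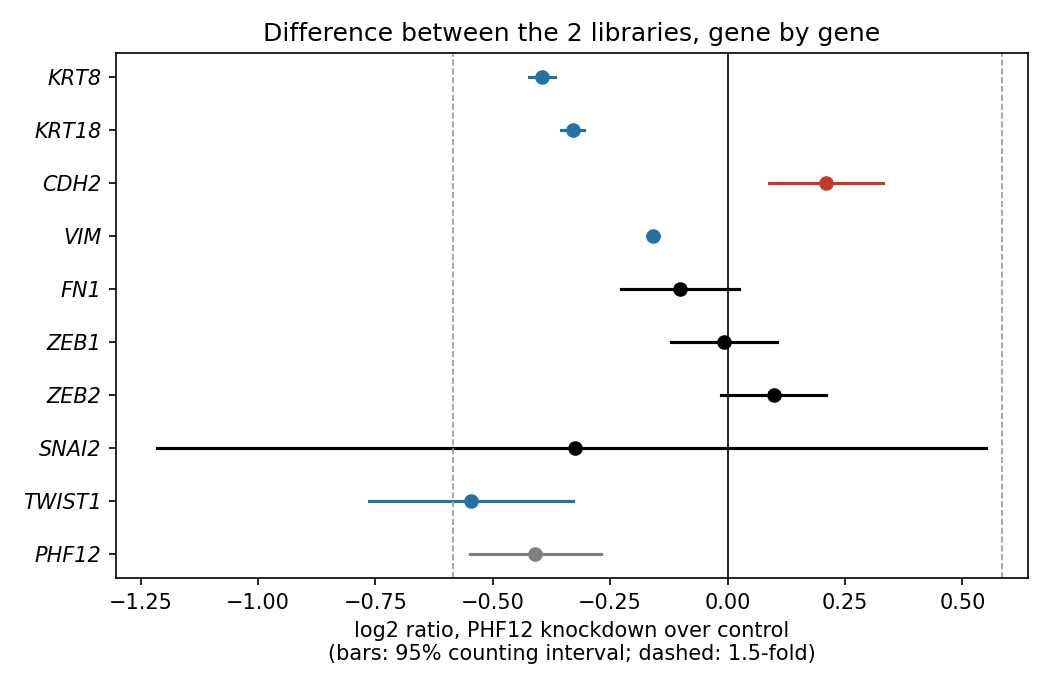
Log2 ratio of the PHF12 knockdown library over the control library for 9 genes of the set (CDH1 had no counts) and for PHF12 in grey; bars are 95% counting intervals from 1 library per group and dashed lines mark 1.5-fold. The interval lies above 0 for CDH2 (red) and below 0 for KRT8, KRT18, VIM and TWIST1 (blue), and it includes 0 for the genes in black.

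Other epithelial genes stood on both sides of no difference. Of 19 measured tight junction and polarity genes, 4 had an interval above no difference and 5 below, near the shares of 20.3% and 20.9% among all genes measured. The claudins CLDN3 and CLDN1 stood at log2 ratios of −0.58 (−1.02 to −0.15) and −0.40 (−0.49 to −0.30), while CLDN12 stood at 0.17 (0.10 to 0.24) and cingulin (CGN), a tight junction plaque protein, at 0.43 (0.28 to 0.57). Of 8 measured desmosome genes, 2 had an interval above no difference, PKP2 at 0.29 (0.13 to 0.44) and PERP at 0.28 (0.21 to 0.35), and 1 below, periplakin (PPL) at −0.24 (−0.34 to −0.13). Of 9 measured epithelial surface genes 1 had an interval above no difference, the mucin MUC1 at 0.40 (0.15 to 0.65), and none below. EPCAM, an epithelial adhesion molecule, had 25 counts in the knockdown library and 19 in the control library. The median log2 ratios of these 3 lists, on the scale with 0.5 CPM added, were 0.05, 0.01 and −0.04, beside −0.01 over all genes.

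VIM, on chromosome 10 from 17228241 to 17237593, had 97477 counts (4876 TPM) in the knockdown library and 102589 counts (5349 TPM) in the control library. It ranked 8th of the 19439 protein-coding genes in both libraries. Its log2 ratio was −0.16 (−0.17 to −0.15), a narrow interval because of the depth, and 41 of the 233 most abundant genes had a larger absolute log2 ratio. VIM outweighed KRT18 per length in both libraries, with a TPM ratio of 2.75 (2.71 to 2.79) in the knockdown library and 2.44 (2.41 to 2.48) in the control library. The log2 change of that ratio, which is free of scaling, was 0.17 (0.14 to 0.20), so vimentin transcript was higher relative to keratin 18 in the knockdown library although both were lower. VIM-AS1, a non-coding gene on the opposite strand that shares 1745 bases with VIM, had 28987 counts in the knockdown library and 31197 in the control library, close to 30% of the VIM counts in each (29.7% and 30.4%). Its log2 ratio was −0.19 (−0.21 to −0.17), and reads of the pair cannot be told apart without strand.

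FN1, on chromosome 2 from 215360862 to 215436167, had 1032 counts (12.7 TPM) in the knockdown library and 1044 counts (13.4 TPM) in the control library. The log2 ratio was −0.10 (−0.23 to 0.02), so no difference was detectable at this depth. FN1 was thus modest for a mesenchymal marker, at rank 7860 in the knockdown library and 7728 in the control library. CDH2 against VIM, another scaling-free measure, moved by 0.37 (0.25 to 0.49) on the log2 scale, with CDH2 the higher relative to VIM in the knockdown library.

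Of the wider mesenchymal list of 30 genes, 22 passed the filter, 9 with a ratio above 0 and 13 with a ratio below 0. Of these 22, 5 had an interval above no difference and 5 below, against 20.3% and 20.9% of all genes measured. The median log2 ratio, with 0.5 CPM added, was −0.02. ACTA2 (smooth muscle actin) stood at 0.43 (0.07 to 0.79), the secreted adhesion protein TGFBI at 0.36 (0.22 to 0.49) and the actin-binding TAGLN at 0.34 (0.12 to 0.56). The 5 with an interval below no difference, named after their values were seen, were the receptor kinase AXL at −0.04 (−0.06 to −0.01), the matrix cross-linkers LOX at −0.28 (−0.48 to −0.08) and LOXL2 at −0.25 (−0.30 to −0.19), thrombospondin (THBS1) at −0.26 (−0.38 to −0.14) and the hyaluronan receptor CD44 at −0.08 (−0.13 to −0.04). The most abundant was the galectin LGALS1, with 2927 TPM in the knockdown library and 2902 TPM in the control library. CDH11, THY1, POSTN and BGN had 0 counts in both libraries.

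**Figure D3:**
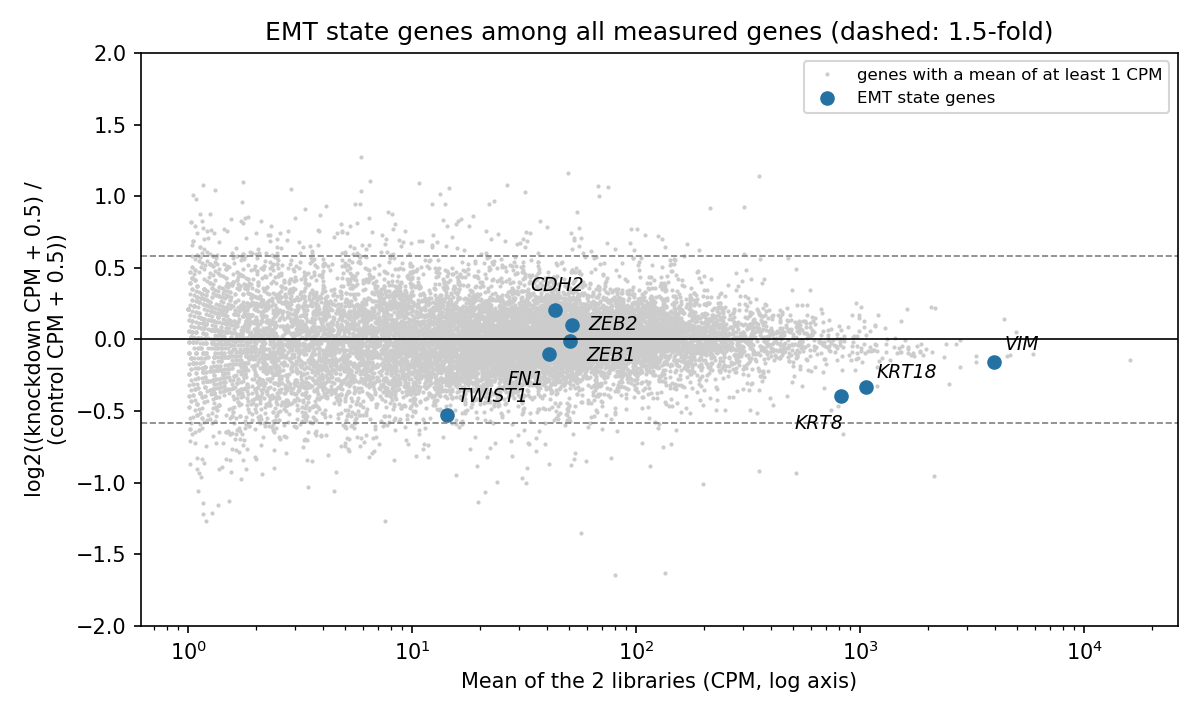
Each gene that passed the filter as a grey point, by mean level of the 2 libraries (CPM, log axis) and log2 ratio of knockdown over control with 0.5 CPM added; the 8 measured EMT state genes are in blue and dashed lines mark 1.5-fold. The EMT state genes lie inside the dashed lines, with KRT8 and KRT18 low for their abundance.

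The 4 transcription factors differed in level, and among them only TWIST1 had an interval that left out no difference. ZEB1, on chromosome 10 from 31318417 to 31529804, had 1320 counts (17.4 TPM) in the knockdown library and 1252 counts (17.2 TPM) in the control library, with a log2 ratio of −0.01 (−0.12 to 0.10). ZEB2, on chromosome 2 from 144384081 to 144520119, had 1395 counts (12.9 TPM) in the knockdown library and 1229 counts (11.8 TPM) in the control library, with a log2 ratio of 0.10 (−0.01 to 0.21). Both ZEB genes were thus present, and neither differed between the libraries beyond counting error. For ZEB2 the call rests on the scaling: its log2 ratio was 0.12 with the deposited TPM, and with TPM or DESeq2 size factors 2 genes of the set in place of 1 had an interval above no difference. The TPM ratio of ZEB1 to ZEB2 was 1.35 (1.25 to 1.45) in the knockdown library and 1.45 (1.34 to 1.57) in the control library, with a log2 change of −0.11 (−0.26 to 0.05), so ZEB1 was the higher of the pair per length in both.

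TWIST1, on chromosome 7 from 19113047 to 19117636, had 303 counts (18.5 TPM) in the knockdown library and 417 counts (26.5 TPM) in the control library. Its log2 ratio of −0.55 (−0.76 to −0.33) was the lowest of the 8 measured genes. With 0.5 CPM added that ratio was −0.53, and 4.11% of all genes measured had a larger absolute log2 ratio on that scale. Relative to VIM, TWIST1 moved by −0.39 (−0.60 to −0.17) on the log2 scale. SNAI2, on chromosome 8 from 48917598 to 48921429, had 22 counts (1.09 TPM) in the knockdown library and 26 counts (1.34 TPM) in the control library. Its log2 ratio of −0.33 had an interval of −1.21 to 0.55, so a level 1.5-fold lower, but not one 1.5-fold higher, lay within counting error. Among the 4 factors the order by TPM was TWIST1, ZEB1, ZEB2 and SNAI2 in both libraries. In the knockdown library TWIST1 and ZEB1 did not differ beyond counting error (ratio 1.06, 0.935 to 1.20).

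Other EMT factors differed in both directions. Of 13 measured, 2 had an interval above no difference and 6 below, against 20.3% and 20.9% of all genes measured. Their median log2 ratio was −0.11 (0.5 CPM added). TWIST2, the paralog of TWIST1, had 188 counts in the knockdown library and 221 in the control library, with a log2 ratio of −0.32 (−0.61 to −0.03). The forkhead factor FOXC1 stood at −0.39 (−0.57 to −0.21) and SOX4 at −0.37 (−0.56 to −0.17), while TCF3, the E-protein that pairs with TWIST factors, stood at 0.36 (0.29 to 0.44). HMGA2, a chromatin protein that promotes SNAI1 and TWIST1 expression, was the most abundant, with 486 TPM in the knockdown library and 426 TPM in the control library and a log2 ratio of 0.17 (0.14 to 0.19). SNAI1 had 17 counts in the knockdown library and 25 in the control library and did not pass the filter. SNAI3 had 54 counts in the knockdown library and 34 in the control library, and the interval of its log2 ratio, 0.58 (−0.06 to 1.25), included no difference.

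Of 18 listed factors that hold the epithelial state, 7 passed the filter and 11 did not, and GRHL2 and ELF5 had 0 counts in both libraries. OVOL1 and OVOL2, repressors of ZEB genes, each had 1 count in the knockdown library and 0 in the control library. The splicing factor ESRP1, which sets epithelial isoforms, had 40 counts in the knockdown library and 42 in the control library, and ESRP2 had 386 and 395. KLF4, a factor that activates epithelial genes and keratins, stood at a log2 ratio of −0.43 (−0.53 to −0.32), TFAP2A at −0.34 (−0.50 to −0.17) and GRHL1 at 0.39 (0.03 to 0.76). Of 7 measured factors these were the ones with an interval that left out no difference, 2 below and 1 above. The shares of all genes measured were 20.9% below and 20.3% above. Of the 7, 6 had a ratio below 0, beside 7519 of all 14559 genes measured. The median was −0.12 with 0.5 CPM added.

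Corepressors and partners of the ZEB proteins were all measured, 16 of 16. Of these, 1 had an interval above no difference and 6 below, against 20.3% and 20.9% of all genes measured. The one above was HDAC1, with 187 TPM in the knockdown library and 132 TPM in the control library and a log2 ratio of 0.48 (0.41 to 0.54). CTBP1, the corepressor that ZEB proteins bind directly, stood at −0.22 (−0.27 to −0.18) with 65.0 TPM in the knockdown library and 74.7 TPM in the control library, and CTBP2 at −0.15 (−0.23 to −0.07). RCOR1, a scaffold of the KDM1A corepressor, stood at −0.22 (−0.29 to −0.15). The list's median log2 ratio was −0.04.

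ZEB1 has an antisense neighbour that starts at the same locus. ZEB1-AS1 shares 2031 bases of its span with ZEB1 and had 221 counts in the knockdown library and 161 in the control library, a log2 ratio of 0.37 (0.07 to 0.67), while ZEB1 itself stood at −0.01. The ZEB1 promoter window with the lowest coordinate, which lies wholly inside ZEB1-AS1, is printed because counts of both genes come from this locus. It is RefSeq sequence (GRCh38.p14, chr10:31318167-31318466, plus strand, 5′ to 3′), from 250 bases before a start site to 50 after, with the E-box CAGGTG in capitals, its first base at position −57 from that start.
ZEB1: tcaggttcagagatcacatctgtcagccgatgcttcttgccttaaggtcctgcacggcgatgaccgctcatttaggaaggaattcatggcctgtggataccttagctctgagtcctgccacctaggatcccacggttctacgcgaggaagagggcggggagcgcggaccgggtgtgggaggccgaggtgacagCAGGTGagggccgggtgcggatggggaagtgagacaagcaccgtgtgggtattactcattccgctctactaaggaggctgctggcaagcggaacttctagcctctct
The search was for CAGGTG and its reverse complement CACCTG, the core bound by ZEB and SNAI factors. At least 1 of them was present in 2 of the 7 ZEB1 windows. The 13 windows available for 6 genes of the set (CDH2, VIM, FN1, ZEB1, ZEB2 and KRT8) gave no other match, and 20.6% of the 35116 promoter windows of the table held one.

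**Figure D4:**
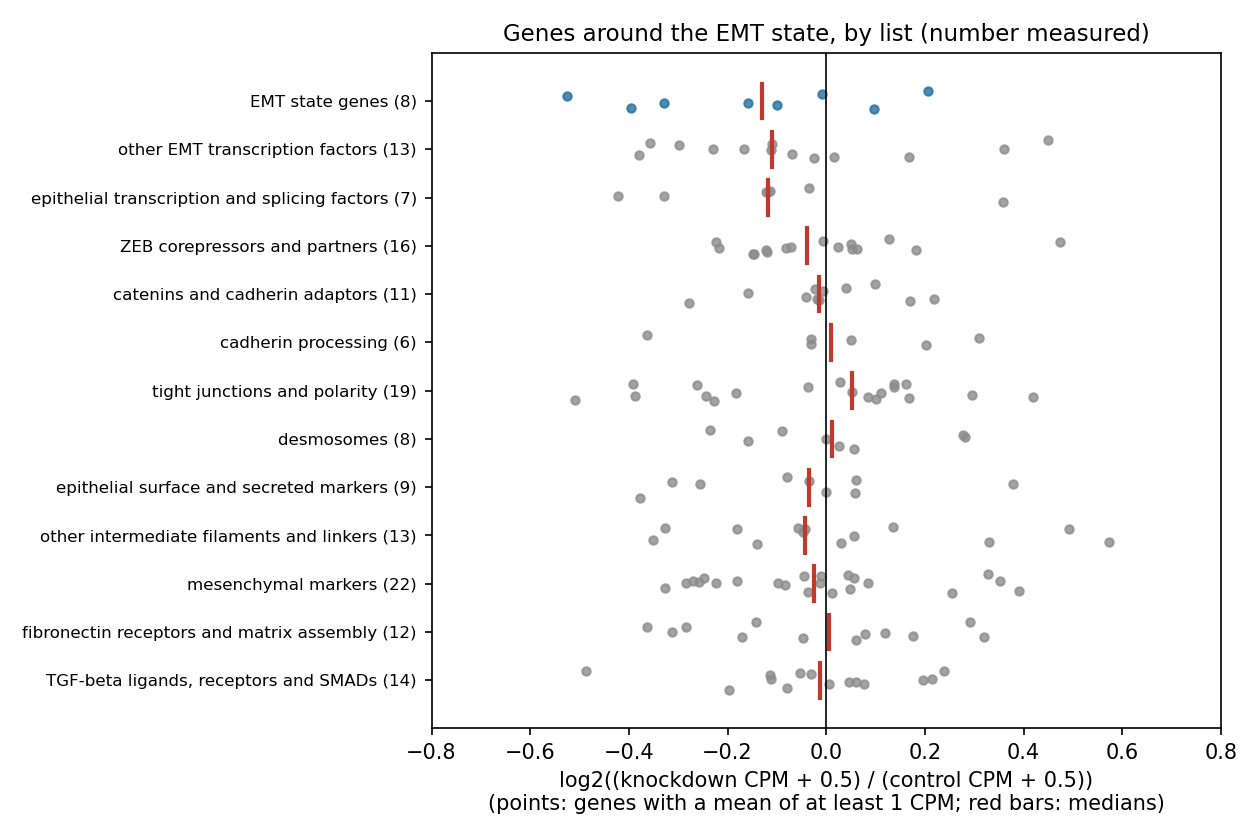
Log2 ratio of knockdown over control, with 0.5 CPM added, for each gene that passed the filter (points) in the EMT state set (blue) and in 12 lists around it (grey); red bars are medians and numbers in brackets count the genes measured. The medians lie between −0.13 for the EMT state genes and 0.05 for tight junctions and polarity, and every list has genes on both sides of 0.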

How the data were processed

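Poly(A)-selected RNA-seq was measured in 2 H1299 libraries, grouped by the treatment label, with columns matched by title. The submitters' processing notes name hg38, HISAT2 and HTSeq, without versions or a strand setting. Raw gene counts and TPM values are what the authors deposited, per the file headers. Each count column was scaled with TMM factors (edgeR 4.0.16, limma 3.58.1, R 4.3.3), 1.00 for the knockdown and 0.997 for the control library. The filter kept 14559 genes, those averaging 1 CPM or more. Gene ratios carry no pseudocount, with an exact conditional Clopper-Pearson 95% interval for 2 Poisson counts. List medians, the 1.5-fold rule and the numbers or shares of genes with a larger absolute log2 ratio use 0.5 CPM. A floor is 3 counts. Longest 3′ UTRs came from complete basic GENCODE 29 transcripts (97.2% of measured protein-coding genes). The methods were tested on simulated data. Genes named are the 10 of the set, PHF12, cadherins, catenins, EMT factors, genes overlapping the set and, per list, the 3 largest log2 ratios whose interval leaves out 0 and the most abundant gene; others named by role (such as EPCAM, KRT19, ESRP1, ESRP2, CTBP2, OVOL1, OVOL2 and NKX2-1) were picked with their values in view. The genes and lists were chosen with earlier results of these data known. Alternatives were other scalings (total counts, DESeq2 1.42.0, protein-coding genes only), TPM, thinning, pseudocounts of 0.1 and 1 CPM, no filter, 5 CPM, 2-fold, and raw count ratios. Other software was scipy 1.17.1, numpy 2.4.6, pandas 2.3.3, matplotlib 3.10.9 and Python 3.11.15.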

Additional observations from a re-analysis of the deposited data

How the results depend on the processing

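Of 226 recomputed values under alternative scalings, filters, pseudocounts and depth, 214 moved by less than their interval (for counts, by less than 1.5 times), 12 moved further, and neither PHF12 nor a gene of the set whose interval left out no difference changed sign. Some of the 214 could not move. Interval calls do not depend on the pseudocount or the fold size, and a set with no gene past 1.5-fold has none past 2-fold. The median of the set was judged against the full range of its values, a wide limit. VIM stood at −0.14 with DESeq2 size factors and −0.13 with the deposited TPM, and KRT18 at −0.30 with TPM, on the log2 ratio scale. Under DESeq2 size factors and under TPM, 2 genes of the set had an interval above no difference in place of 1. Genes past 1.5-fold numbered 337 higher and 349 lower without a filter, 109 and 96 at a mean of at least 5 CPM, and 132 lower with a pseudocount of 1 CPM; past 2-fold they numbered 17 and 17. Values near 0 did change sign: ZEB1 ranged between −0.01 and 0.02, and the list medians of catenins between −0.01 and 0.01, TGF-beta genes between −0.01 and 0.01, epithelial surface genes between −0.04 and 0.00, and fibronectin receptors between −0.05 and 0.03. As ratios of raw counts, which ignore gene length, CDH2 over CDH1 (limit of 3 counts) was 407 in the knockdown and 332 in the control library, KRT8 over KRT18 0.752 and 0.787, VIM over KRT18 3.97 and 3.52, and ZEB1 over ZEB2 0.946 and 1.02, moved by construction. No paired analysis was possible because each group has 1 library, and no replicate could be left out. Depth limits the genes with few counts, in the set CDH1 and SNAI2.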

Other observations

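Genes of fibronectin receptors and of the TGF-beta pathway, a main inducer of EMT, stood on both sides of no difference. Of 16 listed genes for fibronectin receptors and matrix, ITGA8 had 0 counts in both libraries and 12 passed the filter. Of those 12, 4 had an interval above no difference and 4 below, against 20.3% and 20.9% of all genes measured. ITGB1, the beta subunit of the fibronectin receptor, was the most abundant, with 500 TPM in the knockdown library and 452 TPM in the control library and a log2 ratio of 0.12 (0.09 to 0.15). The syndecan SDC4, a coreceptor for fibronectin, stood at 0.32 (0.22 to 0.43), the matrix protein FBLN1 at −0.32 (−0.44 to −0.19) and the focal adhesion protein TNS3 at −0.38 (−0.65 to −0.12). Of 14 measured TGF-beta ligands, receptors and SMAD pathway genes, 3 had an interval above no difference and 3 below, near those shares. TGFB1 had 377 TPM in the knockdown library and 323 TPM in the control library, with a log2 ratio of 0.20 (0.15 to 0.24), and the receptor TGFBR1 and the SMAD inhibitor SKI stood at 0.24 (0.10 to 0.39) and 0.21 (0.13 to 0.30). TGFB2 had 134 counts in the knockdown library and 182 in the control library, a log2 ratio of −0.53 (−0.86 to −0.20).

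The 3′ UTRs of the set were also read for 4 words of 7 bases already known to be frequent among genes that differed in these libraries. Their higher shares among those genes follow from that choice and are not independent evidence. No allowance was made for 3′ UTR length. ACATCGA or CATCGAA was held by 14.2% of 169 genes at least 1.5-fold lower, 4.76% of 126 genes at least 1.5-fold higher and 2.68% of all measured genes with a 3′ UTR. TCGGAGA or ATCGGAG was held by 4.73% of the lower, 15.9% of the higher and 3.08% of all such genes. None of the 10 EMT state genes held any of the 4 words in the 3′ UTR used. At shares of 2.68% and 3.08% among all such genes, none among 10 is an ordinary outcome. No measured gene of the set passed the 1.5-fold rule that defined the lower and higher genes.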
